A study of Homo sapiens with 6 samples.

Results

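The baseline transcriptome of control HEK293T cells was read from the 2 arrays of the shCTL line, which are 2 of the 6 arrays of the study. HEK293T is a human embryonic kidney cell line that carries adenoviral genes and the SV40 large T antigen. The shCTL cells stably expressed a control shRNA, and the parental line was not analysed here, so every value below is the level in cells that already carry the shRNA vector. The 4 other arrays belong to the knockdown lines shlinc00598#2 and shlinc00598#3 and entered only the normalization. All lines were grown in DMEM with serum. Total RNA was amplified into biotinylated cRNA and read on HumanHT-12 v4 BeadChips of Illumina, with 47321 probes on each array. The labels number the 2 shCTL samples as replicates without saying whether they came from separate cultures, so the spread between them may be technical.

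The identity of the second control array rests on its sample description. The series also holds a table of normalized log2 values, and in 4 of its 6 columns the values are those of an array that another sample's description names. Its column for shCTL replicate 2 holds the array described as shlinc00598#2 replicate 2 (Spearman rho of 1.0, against 0.934 with the described control array). The column named for shlinc00598#2 replicate 1 holds the described control array. The descriptions were followed here. Under the other reading 11612 genes were detected instead of 11719, and 11391 genes were detected under both, which is 97.2% of the first list and 98.1% of the second.

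Illumina's detection p-value ranks a probe against the negative control probes of its own array, in steps of 1 in 770. A gene was called detected when at least 1 probe that names it alone had a detection p under 0.05 on both control arrays, and its level was read from the brightest such probe. A probe that is not detected gives only an upper bound for the RNA it was designed for. It can also fail for reasons of its own, so "not detected" is never the same as absent. Probes differ in how strongly they bind and label, so intensities of different genes were not set against each other as abundances. Many human proteins come as paralogues, copies of 1 ancestral gene that in some families serve the same function in different tissues. A cell line usually keeps some members of a family on and others off. HEK293T is widely used as a host for transfected receptors, channels and sensors, for which the level of the cell's own copies matters.

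Of the 47321 probes, 22134 were detected on replicate 1 and 21135 on replicate 2. On both arrays 19884 probes were detected, which is 42.0% of the total, and 23385 were detected on at least 1. The lowest intensity among detected probes was 124.1 on replicate 1 and 124.8 on replicate 2, and the highest intensities were 55291 and 55015. After normalization the lowest detected log2 intensities were 6.95 and 7.0, while probes detected on neither array had a median of 6.62 on each. The 25 probes whose higher detection p was 0.0494, just inside the threshold, had a median of 7.06 (range 6.98 to 7.21). The 24 probes just outside, at 0.0506, had the same median of 7.06 (range 6.97 to 7.18), so probes on either side of the threshold overlapped in level.

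At the level of genes, 11719 of 20046 named genes were detected on both arrays (58.5%), and 8327 were not. The median log2 intensity of the detected genes was 9.47, with quartiles at 8.06 and 10.93. Of them 2800 (23.9%) lay below 8, within about 1 log2 unit of the background, and 173 lay above 14. Detection rose with the number of probes a gene has. Of the 13355 genes with 1 probe 52.5% were detected, of the 4318 with 2 probes 67.7%, and of the 2373 with 3 or more 74.9%. Probes of the same gene often disagreed. Of the 6691 genes with more than 1 probe, all probes were detected for 2187, some but not all for 2514 and none for 1990. Probes with a single gene name were detected more often (51.4%) than the 17208 probes without one (25.6%).

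**Figure D1:**
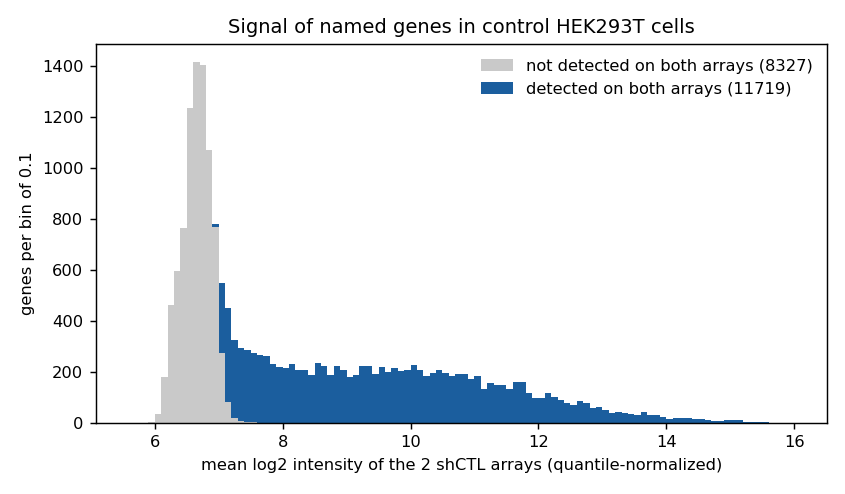
Histogram of the mean log2 intensity of the 2 shCTL arrays (horizontal axis) against the number of named genes per bin of 0.1 (vertical axis), with genes detected on both arrays stacked in blue on the others in grey. The 8327 genes that were not detected form a narrow peak near 6.6, and the 11719 detected genes spread from just under 7 to 15.73.

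The intermediate filament genes known from HEK293 cells were all detected (6 of 6, against 58.5% of all named genes). Pairs of values here and below are log2 intensities on replicate 1 and replicate 2, in that order. Vimentin VIM read 13.53 and 13.13, the neuronal filaments INA 9.82 and 10.05, NEFL 9.44 and 9.09 and NEFM 10.07 and 8.14, and the simple-epithelium keratins KRT8 10.01 and 9.40 and KRT18 7.63 and 7.59. Regulators of the nephron progenitor were detected in 4 of 5 cases (80.0%), a small count to set against 58.5%. They were EYA1 at 9.89 and 9.10, CITED1 at 8.57 and 8.97, WT1 at 8.06 and 8.45 and SALL1 at 7.58 and 7.77. The other, PAX2, was not detected (6.88 and 6.55). The detected regulators had a median of 8.51, near the 8.58 of the surface epithelium genes called below. Genes of the mature nephron were near background. Only the endocytic receptor LRP2 was called (7.19 and 7.49), and 7 others were not, among them the water channels AQP1 and AQP2, the salt transporters SLC12A1 and SLC12A3 and the podocyte gene NPHS1.

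Genes that define other cell types were detected in 0 of 4 to 3 of 5 cases a list, against 58.5% of all named genes, and the called ones read below 9. All 4 endothelial genes were undetected. In the blood list 2 of 6 were called, CD14 at 7.66 and 7.63 and HBA1 at 7.13 and 7.18, while PTPRC, CD3E, HBB and HBG1 were not. Of 5 genes each, the steroid-producing adrenal cortex list had only CYP11A1 (7.14 and 7.04) and the chromaffin list only CHGA (7.24 and 7.16). The collagens COL1A1 (8.40 and 7.84) and COL3A1 (7.87 and 7.42) and the proteoglycan LUM (7.24 and 7.11) were called in the fibroblast list, without COL1A2 or DCN. The surface epithelium list had EPCAM at 8.98 and 8.62 and CDH1 at 8.39 and 8.30, with KRT5, KRT7, KRT14 and KRT19 undetected. Liver genes APOA1 (7.63 and 7.71) and ALB (7.55 and 7.45) were called, and TTR and AFP were not.

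The brightest probes read the translation machinery. Of the 30 brightest genes 14 encode cytosolic ribosomal proteins, and of the 100 brightest 32 do. EEF1A1, which carries aminoacyl-tRNA to the ribosome, read 15.73 on both arrays and was the brightest gene. It was followed by RPL41 (15.55 and 15.63), the growth-related factor TPT1 (15.56 and 15.58) and RPS12 (15.59 and 15.52). The other ribosomal protein genes among the 30 were RPLP2, RPL38, RPL6, RPL32, RPL18, RPS19, RPS29, RPS10, RPS16, RPL27, RPS27 and RPL8, all with a mean of at least 15.09. None of the 30 differed by more than 1.4-fold between the 2 arrays, and their largest SD was 0.14.

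Other members of the 30 came from energy metabolism, chromatin, protein turnover and the cytoskeleton. ATP5F1B, the catalytic subunit of the mitochondrial ATP synthase, read 15.38 on both arrays. The glycolytic enzyme ENO1 read 15.10 and 15.11, the histone gene H4C3 15.24 and 15.24, the polyubiquitin gene UBB 15.08 and 15.17, and the alpha tubulin TUBA1A 15.10 and 15.12. SNAR-A1, a small noncoding RNA that binds the nuclear factor NF90, read 15.47 and 15.38. The pseudogene symbols among the 30 were RPSAP9, SLC7A5P2, ANXA2P2 and RPL13AP20. Their probes may also read the parent genes, whose sequence they nearly share, so these levels cannot be assigned to the pseudogene.

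For several symbols near the top, the other probes of the same gene did not follow. The collagen receptor of leukocytes LAIR1 read 15.25 and 15.20 on 1 probe, and its other probe was not detected (7.01 and 6.94). CLEC2D, a ligand of a natural killer cell receptor, read 15.03 and 15.22 on 1 of 5 probes, 8.10 and 8.29 on another and was undetected on 3. SLC7A5P2 was detected on 1 of 3 probes. The thrombin receptor F2R read 15.23 and 15.26 on 1 probe and 9.54 and 9.18 on the other. CLUAP1, a ciliary transport protein, had 1 probe at 15.18 and 15.17 and 4 between 7.82 and 9.87. ITIH5, singled out after its values were seen, read 15.02 and 14.93 on 1 of 5 probes with the other 4 undetected. Disagreement was not limited to such symbols, since RPL41 had a second probe at 7.29 and 7.52 and RPL32 had 3 more between 7.79 and 9.10. Of the 100 genes above 14 with more than 1 probe, 17 had a probe that was not detected.

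Messenger RNAs of the translation machinery typically begin with a C followed by a run of pyrimidines, the terminal oligopyrimidine (TOP) motif through which mTOR signalling controls their translation. The stretches printed here, from 25 bases before to 35 bases from the annotated start, belong to 6 of the brightest genes and show where that run lies. They come from RefSeq (GRCh38.p14), 5′ to 3′ on the gene's strand, and capitals mark a C with 5 further pyrimidines that starts within 5 bases of the annotated start.
EEF1A1 (chr6:73520998-73521057, minus strand): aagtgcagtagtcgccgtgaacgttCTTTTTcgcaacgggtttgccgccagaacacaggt
RPL41 (chr12:56116608-56116667, plus strand): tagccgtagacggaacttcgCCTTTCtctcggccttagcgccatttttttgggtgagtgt
TPT1 (chr13:45341149-45341208, minus strand): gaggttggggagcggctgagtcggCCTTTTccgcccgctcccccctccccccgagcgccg
RPS12 (chr6:132814544-132814603, plus strand): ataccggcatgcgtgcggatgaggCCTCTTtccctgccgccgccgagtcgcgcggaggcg
RPL38 (chr17:74203653-74203712, plus strand): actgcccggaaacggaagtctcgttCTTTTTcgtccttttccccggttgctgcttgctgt
RPS19 (chr19:41860230-41860289, plus strand): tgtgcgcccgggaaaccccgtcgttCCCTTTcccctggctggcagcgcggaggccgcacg

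Counted the same way on the gene's strand, 73.3% of the 60 cytosolic ribosomal protein genes with a promoter entry carried such a run, and 35 of the 100 brightest genes with an entry did. The share among all 15033 genes with an entry was 11.4%, with 12.1% among detected genes and 10.1% among those not detected. The run was thus more frequent among the brightest genes than among all genes, and nearly as frequent in undetected as in detected genes. Cytosolic ribosomal protein genes make up 32 of the 100 brightest genes. The share among the brightest without that class was not counted. RPL6, RPL32, RPS29 and RPL27 had no such run close enough to their annotated start to be counted. In stretches of the same length, RPL32 and RPL27 had a run farther downstream, RPS29 had one farther upstream, and RPL6 had none. The count therefore does not show that RPL32, RPS29 and RPL27 lack the motif.

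The lists of core machinery were read almost in full. All 10 measured translation elongation factors were detected, from EEFSEC at 7.52 and 7.28 to EEF1A1. The 9 subunits of the CCT chaperonin, which folds actin and tubulin, were all detected with a median of 12.21. So were the 15 subunits of the ATP synthase, with a median of 13.63. Replication licensing factors, which load the MCM helicase at origins, were detected in 15 of 15 cases, with ORC6 at 15.01 and 15.05 (its second probe at 10.57 and 9.92), MCM3 at 14.34 and 14.29 and MCM7 at 13.67 and 13.88. The spliceosome's SR and hnRNP proteins were detected in 21 of 21 cases with a median of 13.13. All detected genes together had a median of 9.47.

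Large complexes had the same pattern with a few gaps. All 76 mitochondrial ribosomal protein genes were detected, and 69 of 72 genes named as cytosolic ribosomal proteins. The 3 not detected were RPL3L and RPL10L, retrogene or muscle copies, and RPL10 (6.83 and 6.62), a subunit that every ribosome contains. Among complex I subunits 32 of 35 were detected, without NDUFA5, NDUFB4 and NDUFS6, and among proteasome subunits 30 of 35. The proteasome subunits not called were the immunoproteasome subunits PSMB8 and PSMB9, the testis subunit PSMA8, the thymus subunit PSMB11 and the chaperone PSMD5. RPL10 and the 3 complex I subunits are needed in respiring, growing cells, and their probes still read background here.

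Paralogue families made up the core of the description. Of 81 families, 76 had at least 2 measured members, with 240 members in all. Of these 165 were detected (68.8%, against 58.5% of all named genes). All members were detected in 27 families, exactly 1 in 23, more than 1 but not all in 21, and none in 5. Of the 75 members not called, 60 were at or above the threshold on both arrays and 15 on only 1.

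**Figure D2:**
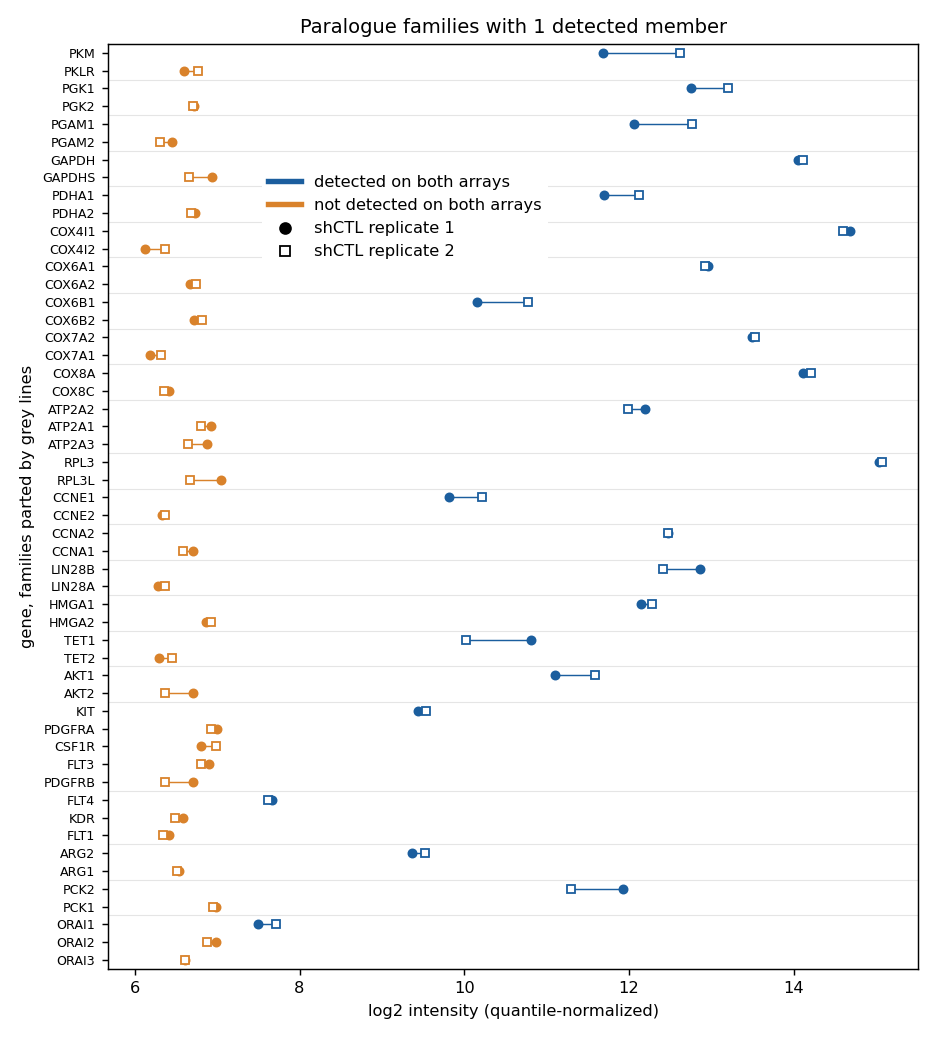
Log2 intensities (horizontal axis) of the members of the 23 paralogue families in which exactly 1 member was detected (vertical axis, families parted by grey lines), with filled circles for shCTL replicate 1 and open squares for replicate 2. Detected members are blue and lie between 7.50 and 15.07, and members that were not detected are orange and lie at or below 7.04. Levels of different genes come from different probes and are not to be read as ratios.

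In 4 glycolytic families only the form used by most tissues was read. Pyruvate kinase was PKM (11.69 and 12.62), with the liver and red cell enzyme PKLR undetected (6.60 and 6.77). Phosphoglycerate kinase was PGK1 (12.75 and 13.20) without the testis enzyme PGK2 (6.72 and 6.70), and phosphoglycerate mutase was PGAM1 (12.06 and 12.77) without the muscle enzyme PGAM2. GAPDH read 14.06 and 14.12 without the sperm enzyme GAPDHS. Several glycolytic families kept more than 1 member. Hexokinases HK1 (12.69 and 13.09, on 1 of 4 probes) and HK2 (11.08 and 10.79) were detected and HK3 and HKDC1 were not. The phosphofructokinases PFKP, PFKM (muscle form, 11.06 and 11.20) and PFKL (liver form, 9.36 and 9.91) and the enolases ENO1, ENO2 and ENO3 (muscle form, 9.22 and 9.07) were all detected, as were aldolases ALDOA and ALDOC. Of these, PFKP and PFKL were each detected on 1 of 2 probes and ALDOA on 2 of 4. The testis lactate dehydrogenase LDHC was detected (10.16 and 9.25, on 2 of 3 probes) beside LDHA (14.60 and 15.06) and LDHB (13.51 and 13.66). Of the glucose transporters, SLC2A3 (11.93 and 11.37) and SLC2A1 (9.94 and 10.40) were detected, while the liver transporter SLC2A2 and the insulin-regulated transporter SLC2A4 were not detected.

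Of the PCK and arginase pairs, only the mitochondrial or extrahepatic member was detected. Mitochondrial PCK2 read 11.93 and 11.30, and cytosolic PCK1 was not detected (6.99 and 6.95). Arginase ARG2 read 9.37 and 9.52, and the liver enzyme ARG1 did not pass (6.53 and 6.51). Neither fructose bisphosphatase, FBP1 or FBP2, was detected. Creatine kinases showed the brain form CKB (13.66 and 13.59) and the ubiquitous mitochondrial copies CKMT1A and CKMT1B, whose near-identical sequences may share signal, while the muscle forms CKM and CKMT2 were undetected.

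The tissue isoforms of cytochrome c oxidase, the last complex of the respiratory chain, were resolved in each of 5 subunit families. COX4I1 read 14.68 and 14.60, COX6A1 12.96 and 12.92, COX6B1 10.15 and 10.77, COX7A2 13.49 and 13.53 and COX8A 14.12 and 14.21. Their lung, heart, muscle or testis counterparts COX4I2, COX6A2, COX6B2, COX7A1 and COX8C all lay between 6.12 and 6.82 and were not detected. The somatic E1 alpha subunit of pyruvate dehydrogenase, PDHA1, was detected (11.70 and 12.12) without the testis gene PDHA2. Of the adenine nucleotide translocases, SLC25A5 (14.73 and 14.97) and the heart form SLC25A4 (12.02 and 12.16) were detected and the sperm form SLC25A31 was not.

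The promoters of some of these pairs differ in CpG content. CpG dinucleotides are depleted from most of the human genome and retained in CpG islands, where many widely used genes start. Printed here are 300 bases, 250 before and 50 from the annotated start, for 3 pairs in which 1 gene was detected and its paralogue was not. The sequences are RefSeq's on GRCh38.p14, 5′ to 3′ on the gene's strand, with each CG in capitals. PKM and PKLR are shown as a pair with unequal CpG content, ARG2 and ARG1 as another, and CCNA2 and CCNA1 as a pair without that difference.
PKM: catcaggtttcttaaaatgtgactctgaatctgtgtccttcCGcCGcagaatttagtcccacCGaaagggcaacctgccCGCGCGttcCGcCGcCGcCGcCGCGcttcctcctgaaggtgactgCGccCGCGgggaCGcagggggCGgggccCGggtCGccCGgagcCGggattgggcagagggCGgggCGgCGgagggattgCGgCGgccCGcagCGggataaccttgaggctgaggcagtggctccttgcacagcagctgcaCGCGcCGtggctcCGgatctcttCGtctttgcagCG
PKLR: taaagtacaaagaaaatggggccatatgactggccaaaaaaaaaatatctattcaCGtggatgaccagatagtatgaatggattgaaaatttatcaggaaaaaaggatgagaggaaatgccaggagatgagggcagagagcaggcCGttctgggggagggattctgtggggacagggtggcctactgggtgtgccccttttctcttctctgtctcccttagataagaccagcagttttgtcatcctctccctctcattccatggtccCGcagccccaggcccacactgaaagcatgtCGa
ARG2: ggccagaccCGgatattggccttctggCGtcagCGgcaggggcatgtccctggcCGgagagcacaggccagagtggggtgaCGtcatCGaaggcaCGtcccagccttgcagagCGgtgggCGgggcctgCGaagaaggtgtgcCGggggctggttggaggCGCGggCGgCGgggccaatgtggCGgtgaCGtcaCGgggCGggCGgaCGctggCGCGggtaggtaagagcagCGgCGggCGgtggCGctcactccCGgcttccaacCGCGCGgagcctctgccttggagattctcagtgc
ARG1: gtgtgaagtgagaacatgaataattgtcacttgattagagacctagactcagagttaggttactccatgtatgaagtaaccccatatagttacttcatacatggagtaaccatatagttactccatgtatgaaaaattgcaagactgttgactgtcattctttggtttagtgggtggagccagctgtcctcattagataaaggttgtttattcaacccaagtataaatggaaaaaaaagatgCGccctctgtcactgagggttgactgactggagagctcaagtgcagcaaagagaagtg
CCNA2: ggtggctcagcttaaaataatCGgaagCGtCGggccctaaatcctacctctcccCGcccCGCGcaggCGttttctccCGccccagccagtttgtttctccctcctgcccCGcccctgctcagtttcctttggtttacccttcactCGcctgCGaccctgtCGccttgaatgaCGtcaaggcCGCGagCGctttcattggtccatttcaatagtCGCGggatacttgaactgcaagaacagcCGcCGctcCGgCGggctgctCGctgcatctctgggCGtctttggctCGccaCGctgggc
CCNA1: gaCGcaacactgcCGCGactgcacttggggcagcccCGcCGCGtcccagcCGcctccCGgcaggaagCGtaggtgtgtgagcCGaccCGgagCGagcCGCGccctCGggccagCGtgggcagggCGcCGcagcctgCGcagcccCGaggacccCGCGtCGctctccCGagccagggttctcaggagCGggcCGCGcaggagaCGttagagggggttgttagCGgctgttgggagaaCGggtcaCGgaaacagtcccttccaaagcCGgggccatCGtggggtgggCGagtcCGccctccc

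The PKM window (chr15:72231141-72231440, minus strand) held 34 CpG, 0.984 of the number its C and G content gives by chance, and that of PKLR (chr1:155301389-155301688, minus strand) held 4, a ratio of 0.231. The ARG2 window (chr14:67619670-67619969, plus strand) held 31 with a ratio of 0.862, and that of ARG1 (chr6:131572976-131573275, plus strand) held 1 with a ratio of 0.0857. The A-type cyclin pair had no such contrast. CCNA2 (chr4:121823834-121824133, minus strand) held 26 with a ratio of 0.967, and CCNA1 (chr13:36431705-36432004, plus strand), which was not detected, held 35 with a ratio of 0.885. In 32 families with a promoter entry for both detected and undetected members, the mean ratio was higher for the detected members in 23 and lower in 9. The TET pair was of the latter kind, with 0.463 for TET1 and 0.769 for TET2.

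Across all 15033 genes with a promoter entry, detection followed the CpG ratio. The median ratio was 0.846 for the 9459 detected genes (quartiles 0.705 and 0.955) and 0.385 for the 5574 others (quartiles 0.181 and 0.75). Of genes with a ratio of at most 0.1, 17.1% were detected, and of genes with a ratio over 1, 86.2% were. Among detected genes the median log2 intensity was 7.76 in the lowest of these classes and 10.02 in the highest. A ratio over 0.6 was found for 83.8% of detected genes and for 36.2% of the rest. These figures describe genes of 1 cell line on 1 array design and are not replicates of a test.

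**Figure D3:**
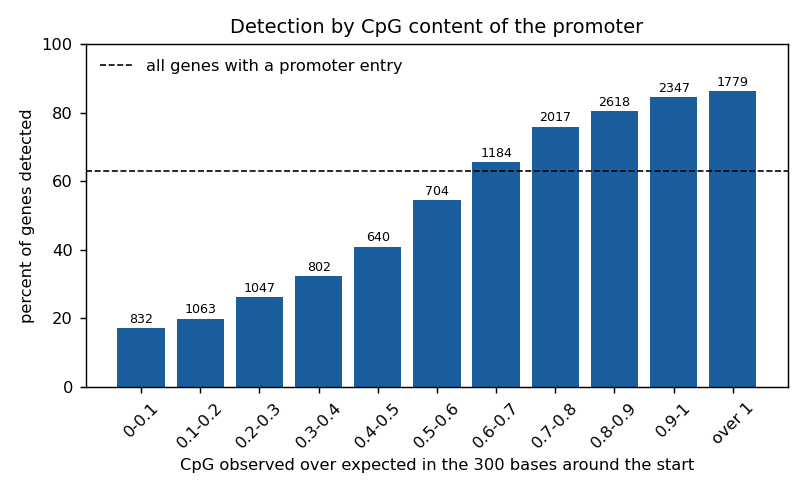
Percent of genes detected on both shCTL arrays (vertical axis) by the ratio of observed to expected CpG in the 300 bases around the annotated start (horizontal axis), with the number of genes above each bar. The share rises from 17.1% in the lowest class to 86.2% in the highest, and the dashed line marks 62.9%, the share of all genes with a promoter entry.

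Short motifs were counted in the same windows on both strands. The TATA box TATAAA was found in 9.53% of all windows, in 5.56% of those of detected genes, in 16.3% of those of undetected genes and in 13 of the 100 brightest genes with an entry. The GC box GGGCGG, which holds a CpG itself, was found in 58.6% of all windows, 70.3% of detected and 38.8% of undetected genes. CCAAT was found in 36.5%, with 37.1% and 35.5% on the 2 sides. A match is a run of letters and not a bound site.

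Cytoskeletal families kept most members. The shares of actins (66.7%) and alpha tubulins (62.5%) were not far above the 58.5% of all named genes. The actins ACTG1 (14.83 and 15.35) and ACTB (14.01 and 14.68) were detected along with the smooth muscle actin ACTA2 (11.09 and 9.47) and, low, the skeletal actin ACTA1 (7.42 and 7.66). The cardiac actin ACTC1 and the enteric actin ACTG2 were not. Of 8 alpha tubulins, TUBA1A, TUBA1B (14.75 and 14.48), TUBA1C (14.60 and 14.82), TUBA3D (on 1 of 2 probes) and TUBA4A were detected. TUBA3C, TUBA3E and TUBA8 were not. Of 8 beta tubulins only the platelet form TUBB1 was not detected, and the neuronal forms TUBB2B (13.62 and 13.79) and TUBB3 (8.16 and 8.46) were. Tubulin and actin genes are close in sequence, so their probes may share signal. All 3 lamins and all 3 nonmuscle myosin II heavy chains, MYH10 (13.70 and 13.90), MYH9 (12.67 and 13.01) and MYH14 (7.06 and 7.08), were detected. Among the other filament genes the peripheral neuron filament PRPH (9.48 and 8.54), nestin NES and NEFH were called, and the muscle filament DES and the glial filament GFAP were not.

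The cell cycle families were read in full apart from CCNA1 and CCNE2. CCNA2, the S and G2 phase cyclin, read 12.48 and 12.47 and the germ cell cyclin CCNA1 was not detected (6.70 and 6.59). CCNE1 read 9.81 and 10.22 on 1 of 2 probes and CCNE2, which also drives S phase entry, was not detected (6.33 and 6.36). All D-type cyclins were detected, with CCND3 at 11.95 and 11.74, CCND2 at 12.37 and 10.65 and CCND1 at 11.19 and 11.60. Their kinases CDK4 (13.41 and 13.15) and CDK6, the B-type cyclins CCNB1, CCNB2 and the meiotic CCNB3 (8.50 and 7.90) and the pocket proteins RB1 (9.87 and 9.57), RBL1 and RBL2 were detected as well. Of the MYC factors, MYC had a mean of 13.19 ± 0.28 (SD, n = 2), with MYCN (7.90 and 7.96) and MYCL (7.58 and 7.51) near the background.

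Among families known from embryonic and tumour cells, LIN28, HMGA and TET had a single detected member, and the others had more. LIN28B, which blocks the maturation of let-7 microRNAs, read 12.86 and 12.41, and its stem cell paralogue LIN28A was not detected (6.28 and 6.37). The architectural protein HMGA1 read 12.15 and 12.28 and HMGA2, a let-7 target, was not detected (6.86 and 6.93). All 3 IGF2 mRNA-binding proteins were called, IGF2BP2 at 12.10 and 11.56, IGF2BP3 at 11.56 and 11.87 and IGF2BP1 at 7.76 and 7.95. In the SALL family SALL2 (11.01 and 10.77), SALL4 and SALL1 were called and SALL3 was not, and in the HMGB family only the testis gene HMGB4 was not. Enzymes of DNA methylation were read as DNMT1 (14.31 and 14.19), DNMT3B (10.71 and 11.25) and, at the background's edge, DNMT3A (7.02 and 7.11), without the germ line cofactor DNMT3L. The demethylase TET1 read 10.81 and 10.02 and TET2 was not detected (6.29 and 6.45). The Polycomb methyltransferases EZH2 (10.52 and 10.53) and EZH1 (7.36 and 7.13) were called, as were class I deacetylases HDAC1, HDAC2, HDAC3 and HDAC8.

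Transcription factors and kinases of the growth factor pathway were also mixed. Of the FOXO factors, which AKT excludes from the nucleus, FOXO4 (11.67 and 11.86), FOXO3 (11.70 and 11.53) and FOXO1 (9.30 and 9.31) were detected, and FOXO6 was not. AKT1 read 11.10 and 11.59 and AKT2 was not detected (6.71 and 6.36). The coactivators CREBBP (11.39 and 11.12) and EP300 (9.89 and 9.71) were detected, with their binding partners CITED2 (12.05 and 11.48), CITED1 and CITED4. Of the TEAD factors, the DNA-binding partners of YAP, TEAD2 (11.83 and 11.78), TEAD4 (10.36 and 10.36) and TEAD1 (7.35 and 7.29) were called and TEAD3 was not. PIM1 (10.15 and 9.01) and PIM2 (8.96 and 9.63) were called without PIM3.

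Receptor tyrosine kinases had many undetected members. FGFR3 (10.82 and 11.54) and FGFR4 (10.21 and 9.94) were detected and FGFR1 and FGFR2 were not. ERBB2 (10.52 and 10.95), EGFR (9.96 and 9.32) and ERBB3 (7.61 and 7.54) were called without ERBB4. In its family KIT, the stem cell factor receptor, was the only member called (9.44 and 9.53), and PDGFRA, PDGFRB, CSF1R and FLT3 were not. The VEGF receptor list had FLT4 alone, low at 7.67 and 7.62 and on 1 of 3 probes. No member passed in the insulin receptor list (INSR, IGF1R and INSRR) or in the TRK list (NTRK2 and NTRK3). INSR (detection p 0.0286 and 0.0714), NTRK2 (0.0701 and 0.0312) and IGF1R (0.132 and 0.00519) each passed on 1 array only.

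Adhesion and Notch families were partly read. Notch receptors NOTCH1, NOTCH2 and NOTCH3 were detected and the endothelial NOTCH4 was not. N-cadherin CDH2 read 10.75 and 10.29, P-cadherin CDH3 9.17 and 9.16 and E-cadherin CDH1 8.39 and 8.30, with the endothelial CDH5 undetected. Of 8 beta integrins, ITGB1 (12.37 and 12.06), ITGB5 (11.03 and 10.74) and the leukocyte chain ITGB2 (8.11 and 8.04) were called, and ITGB3, ITGB4, ITGB6, ITGB7 and ITGB8 were not. Caveolins CAV1 (9.92 and 9.74) and CAV2 were detected without the muscle form CAV3.

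In calcium handling the ryanodine receptors of muscle and nerve were not detected and the IP3 receptors were. The endoplasmic reticulum pump was ATP2A2 (12.20 and 11.99), which heart muscle also uses, without ATP2A1 or ATP2A3 (6.87 and 6.65). All 3 IP3 receptors were detected, ITPR3 at 11.79 and 11.64, ITPR1 at 9.84 and 9.29 and ITPR2 at 8.24 and 8.11, and none of the 3 ryanodine receptors was. For store-operated entry the sensors STIM1 (9.39 and 9.37) and STIM2 (7.64 and 7.92) and the pore ORAI1 (7.50 and 7.71) were called, and ORAI2 and ORAI3 were not. The mechanosensitive channel PIEZO1 read 10.52 and 11.05, with PIEZO2 low at 7.08 and 7.27.

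Several other families were detected in full, though PABPC3 and ATP1B3 were called on 1 of 2 probes and PABPC5 on 1 of 3. They were the poly(A)-binding proteins PABPC1, PABPC3, PABPC4 and PABPC5, the HSP90 chaperones HSP90AA1 (14.45 and 14.89), HSP90AB1, HSP90B1 and TRAP1, the helicases RUVBL1 and RUVBL2, the sodium pump beta chains ATP1B1, ATP1B2 and ATP1B3, the dynamins DNM1, DNM2 and DNM3, the amyloid precursor family APP, APLP1 and APLP2, and UTRN with DMD, the latter on 1 of its 8 probes. The second elongation factor 1 alpha gene EEF1A2, known from neurons and muscle, read 13.39 and 12.65. RPL3 read 15.04 and 15.07 without the muscle copy RPL3L. Neither alpha crystallin, CRYAA or CRYAB, was detected.

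Innate sensing was read as receptors near background above a nearly complete signalling chain. Of 10 Toll-like receptors 2 were called, TLR5 at 7.57 and 7.18 and TLR6 at 7.12 and 7.02, and TLR2, TLR3, TLR4, TLR7, TLR8 and TLR9 were not. LY96, the TLR4 coreceptor, was not detected either. Of the adaptors and kinases 15 of 16 were called, with IRAK1 at 12.13 and 12.11, CHUK at 11.21 and 10.54 and TBK1 at 10.07 and 10.71, while the adaptor MYD88 lay low (7.08 and 7.39). In cytosolic nucleic acid sensing 6 of 12 were called. The DNA sensor CGAS lay at the bottom of the range (6.00 and 6.17, detection p 1 and 0.957), its effector STING1 at 7.85 and 7.96, the RNA sensor IFIH1 at 8.76 and 8.12, RIGI at 7.02 and 7.03, their adaptor MAVS at 7.96 and 8.53 and the factor IRF3 at 10.03 and 9.95.

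Inflammasome genes were largely undetected. Of 11, only the cytokine IL18 (13.44 and 13.28) and the pore protein GSDME (10.55 and 9.83) were called, and the sensor NLRP3, the adaptor PYCARD, the proteases CASP1, CASP4 and CASP5, the pore GSDMD and IL1B were not. Interferon receptors and JAK-STAT genes were called in 14 of 16 cases, with TYK2 at 12.15 and 11.94, IFNGR1 at 11.94 and 11.45, STAT3 at 10.40 and 10.38 and IFNAR1 at 9.28 and 9.45, without JAK3 and STAT5A. None of the 17 type I interferon genes was detected. MHC class I genes were called in 10 of 13 cases, B2M at 12.10 and 11.98 and HLA-B at 11.35 and 11.05, while the interferon-inducible PSMB8, PSMB9 and NLRC5 were not. The 9 class II genes gave 5 calls (55.6%, near the 58.5% of all named genes). They were HLA-DMB, HLA-DPA1, HLA-DMA, HLA-DRA and HLA-DRB1, without the master regulator CIITA (6.67 and 6.65) or the invariant chain CD74. HLA genes are polymorphic, and a probe designed on 1 allele can misread another.

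Ion channels that are commonly studied by transfection were mostly undetected. Of 12 measured voltage-gated sodium channel genes 2 were called, the accessory subunits SCN4B (7.38 and 7.28) and SCN2B, and no pore-forming subunit was. Of 17 calcium channel genes 6 were called, CACNA1H (9.88 and 9.31), which carries T-type current, CACNB3 (9.42 and 9.27), CACNA2D2, CACNB2, CACNA1C (7.74 and 7.42) and CACNA1S. Of 22 TRP channels 6 were called, the lysosomal MCOLN1, MCOLN2 (10.58 and 10.66) and MCOLN3 (10.40 and 10.26), TRPM4 (10.00 and 10.11), TRPC1 (9.78 and 8.96) and TRPV1 (7.65 and 8.19). TRPM7, TRPA1 and TRPV4 were not. Among KCNQ, hERG and KCNE genes only KCNQ3 was called (6.99 and 7.31), 1 of 8.

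G protein-coupled receptors used as pharmacological targets were read in small numbers. Muscarinic and adrenergic receptors gave 2 of 12, CHRM3 (8.52 and 7.87) and ADRA2B (7.41 and 7.29), and ADRB1 and ADRB3 were not detected. Dopamine, serotonin and opioid receptors gave 2 of 17, DRD4 (9.19 and 8.93) and OPRL1 (8.46 and 8.20). Adenosine and P2Y receptors gave 6 of 11 (54.5%, near the 58.5% of all named genes), with ADORA2B at 10.54 and 10.79, P2RY11 at 9.29 and 8.93, ADORA2A at 8.75 and 8.22, ADORA1 at 8.41 and 8.50, P2RY1 at 8.07 and 8.17 and P2RY2 at 7.39 and 7.28. G protein alpha subunits were called in 9 of 15 cases. GNAS read 14.91 and 14.65 on 1 of its 3 probes, GNA13 10.80 and 11.24 and GNAQ 9.20 and 9.04, and the haematopoietic GNA15 and the retinal GNAT1 and GNAT2 were not detected. Of the desensitizing kinases and arrestins GRK2, GRK4, GRK5, GRK6 and ARRB1 (9.33 and 8.91) were called, 5 of 10.

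Drug-handling genes were sparse. Of 13 cytochrome P450 and partner genes 4 were called, CYP2J2 (9.70 and 9.85), the reductase POR (8.32 and 8.98), CYP1B1 (7.88 and 7.64) and CYP2E1 (7.57 and 7.49), and CYP3A4, CYP2D6, CYP1A1 and CYP1A2 were not. The efflux pumps ABCC4 (10.69 and 11.10), ABCC5 (9.58 and 10.29) and ABCB1 (9.42 and 8.76) were called, without ABCG2. That is 3 of 7 (42.9%, against 58.5% of all named genes). The organic ion transporter list holds 11 genes, most of them uptake carriers. The proton-coupled exporter SLC47A1 (11.25 and 11.33) and the uptake carrier SLCO4A1 (7.87 and 8.38) were called. The kidney transporters SLC22A2, SLC22A6 and SLC22A8 and the liver transporters SLCO1B1 and SLCO1B3 were not.

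Nuclear receptors were called in 20 of 27 cases (74.1%, against 58.5% of all named genes). The retinoid receptors RXRB (11.12 and 11.07), RXRA (9.94 and 10.43), RARA (9.83 and 9.85) and RARB (10.61 and 9.11), the fat cell regulator PPARG (11.15 and 11.02) and NR2F1 and NR2F6 were among them. The glucocorticoid receptor NR3C1 was low (7.57 and 7.47), as were ESR2 and THRA (7.47 and 7.41). The estrogen receptor ESR1, the progesterone receptor PGR, PPARA, RARG and THRB were not detected. Virus entry receptors were called in 14 of 17 cases, with SLC7A1 at 13.34 and 12.98, SLC20A1 at 12.80 and 12.77, TFRC at 12.41 and 13.08, BSG at 11.73 and 11.68 and the coxsackievirus and adenovirus receptor CXADR at 10.75 and 10.67. CD4, ANPEP and TMPRSS2 were not called.

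**Figure D4:**
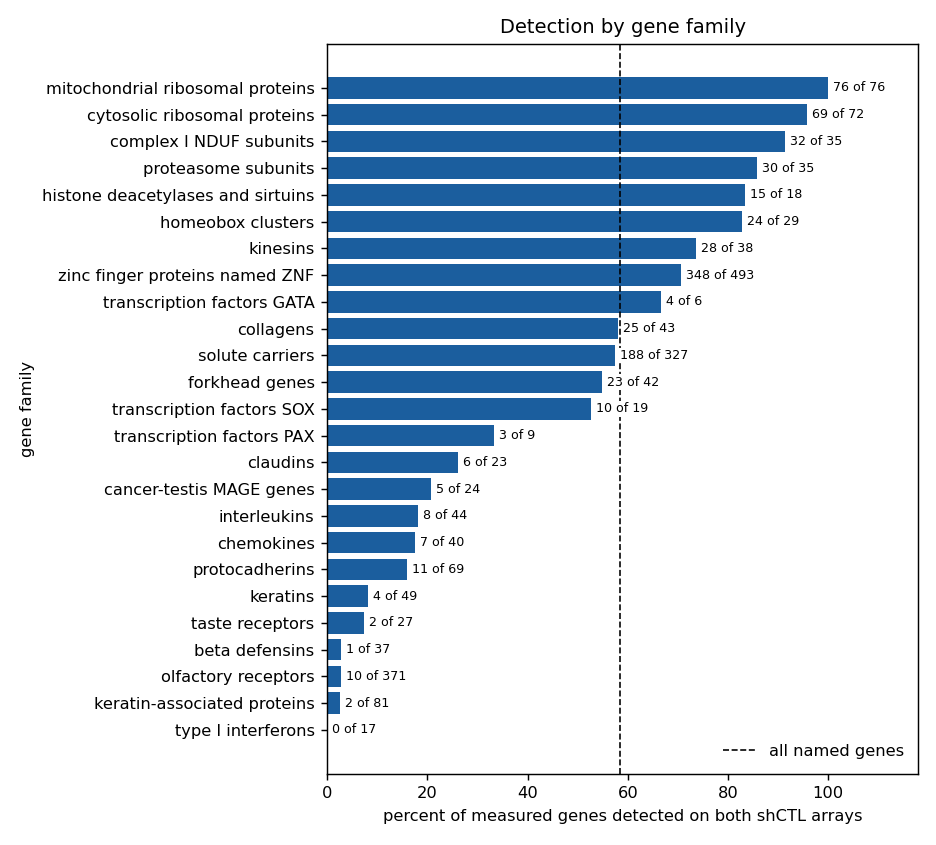
Percent of measured genes detected on both shCTL arrays (horizontal axis) in 25 gene families defined by their symbols (vertical axis), with counts beside the bars. The dashed line marks 58.5%, the share of all named genes, and the families run from 0 of 17 type I interferons to 76 of 76 mitochondrial ribosomal proteins.

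Families of sensory and barrier genes lay far below the share of all genes. Olfactory receptors were called in 10 of 371 cases (2.7%), keratin-associated proteins in 2 of 81 (2.47%), beta defensins in 1 of 37 (2.7%) and taste receptors in 2 of 27 (7.41%). The olfactory receptor OR9A4, with 7.61 and 7.60, was among those called. Keratins were called in 4 of 49 cases, KRT10 (12.35 and 11.54), KRT8, KRT222 and KRT18. Chemokines gave 7 of 40, with CXCL16 at 10.38 and 10.18 and the others at a mean below 8, and interleukin genes 8 of 44, with IL18 and IL10 (11.44 and 11.72) among them. Claudins gave 6 of 23, among them CLDN12 (11.04 and 10.85), and protocadherins 11 of 69, among them PCDH7 (9.86 and 9.91). The cancer-testis MAGE genes gave 5 of 24, of which only MAGEB2 (9.05 and 9.11) had a mean above 8.

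Shares in other large families are to be read against the 58.5% of all named genes. Homeobox cluster genes were called in 24 of 29 cases, among them HOXC6 (11.42 and 11.91), HOXC4 (10.57 and 10.25), HOXD11 (10.10 and 10.36), HOXB5, HOXB2 and HOXD13, and HOXB1, HOXB9, HOXC5, HOXC12 and HOXD12 were not. Zinc finger genes named ZNF were called in 348 of 493 cases (70.6%). SOX genes gave 10 of 19 (52.6%), among them SOX4 (12.02 and 11.29), SOX21, SOX8 and the stem cell factor SOX2 at 7.86 and 8.03. Forkhead genes gave 23 of 42 (54.8%), GATA factors 4 of 6 and PAX genes 3 of 9. PAX6, the eye and brain regulator, read 10.11 and 9.92, and the kidney regulators PAX2 and PAX8 were not detected. Collagens gave 25 of 43 (58.1%), among them the basement membrane chains COL4A5 (11.32 and 11.16) and COL4A1 (10.80 and 10.83). Kinesins gave 28 of 38, solute carriers 188 of 327 (57.5%) and deacetylases with sirtuins 15 of 18.

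By gene class, 62.6% of the 17772 protein-coding genes were detected, 40.1% of 279 small nucleolar RNA genes, 38.4% of 528 transcribed pseudogenes, 26.2% of 798 long noncoding RNA genes and 4.28% of 561 microRNA genes. The amplification primes on poly(A) tails, and which transcripts the probes of microRNA and small nucleolar RNA genes read was not tested. Among noncoding genes singled out after their values were seen, TUG1 read 13.02 and 13.07, HOTAIR 8.05 and 8.90 and the telomerase RNA gene TERC 8.89 and 9.67, while MALAT1 (6.61 and 6.55) and H19 (6.33 and 6.33) were not detected on their single probes. The small nucleolar RNA host genes SNHG1 (14.29 and 12.92) and SNHG32 (14.70 and 13.11) were bright and lower on replicate 2. No probe carries the name of linc00598 itself.

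By chromosome the share of detected genes ran from 51.0% on chromosome 21 and 51.1% on chromosome 11 to 63.0% on chromosome 22 and 67.1% on chromosome 16. Chromosome 11 holds 165 of the measured olfactory receptors, and without them its share was 58.3%. Chromosome 21 holds 0 of the measured olfactory receptors and chromosome X (51.9%) holds 1, so leaving them out could hardly change these shares.

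The 2 control arrays tracked each other closely, with r = 0.981 across the 19884 probes detected on both, a description across probes, which are not independent replicates. The median absolute difference of the detected genes was 0.22 on the log2 scale, and 9581 of 11719 (81.8%) lay within 1.4-fold, the factor the study used for its own comparisons. With 1 array on each side these differences are descriptions and carry no test. The spread depended on the level. The median absolute difference was 0.16 below 8, 0.27 between 9 and 10 and 0.10 above 14. The share beyond 1.4-fold was 9.68% below 8, 24.5% between 9 and 10 and 5.78% above 14.

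Of the detected genes, 1139 (9.72%) were more than 1.4-fold higher on replicate 1 and 999 (8.52%) were more than 1.4-fold higher on replicate 2. More than 2-fold higher were 147 genes on replicate 1 and 75 on replicate 2, and more than 4-fold 13 and 1. The stress-induced factor ATF3 had the widest gap, 14.69 on replicate 1 and 11.57 on replicate 2, an 8.73-fold difference on 1 of its 3 probes, the only one detected. The growth arrest gene GADD45A read 12.91 and 9.92 (7.90-fold) and the arrestin-related ARRDC4 11.93 and 9.05 (7.37-fold). TXNIP, the inhibitor of thioredoxin that rises with glucose, read 13.28 and 11.01. The others of the 10 genes with the widest gap in this direction were TNFRSF12A, C11orf96 (also on 1 of 3 probes), ANXA1, INHBE, HSPB8 and SAT1, between 4.68-fold and 6.69-fold.

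In the other direction the gaps were smaller. The Y RNA gene RNY4 read 7.80 and 9.81, a 4.04-fold difference, and the immediate early factor EGR1 8.64 and 10.55 (3.76-fold). RNY1, a second Y RNA gene, read 9.14 and 10.80, the metal-binding MT1X 8.68 and 10.28 and the antiviral protein ZC3HAV1 9.63 and 11.26. NAGPA, LOC105274304, TELO2, RPL29 and POLR2L completed the 10, each between 2.88-fold and 3.16-fold. Under the other reading of the second control array, all 10 named genes higher on replicate 1 had a wider gap. For ATF3 the difference on the log2 scale (second minus first array) was -4.53. Of those higher on replicate 2, EGR1 (1.43), TELO2 (0.73), RNY4 (1.82) and LOC105274304 (1.51) had a narrower gap. The gap of the others was wider. Both readings share replicate 1, against which these genes were chosen, so a kept direction is no sign of stability.

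**Figure D5:**
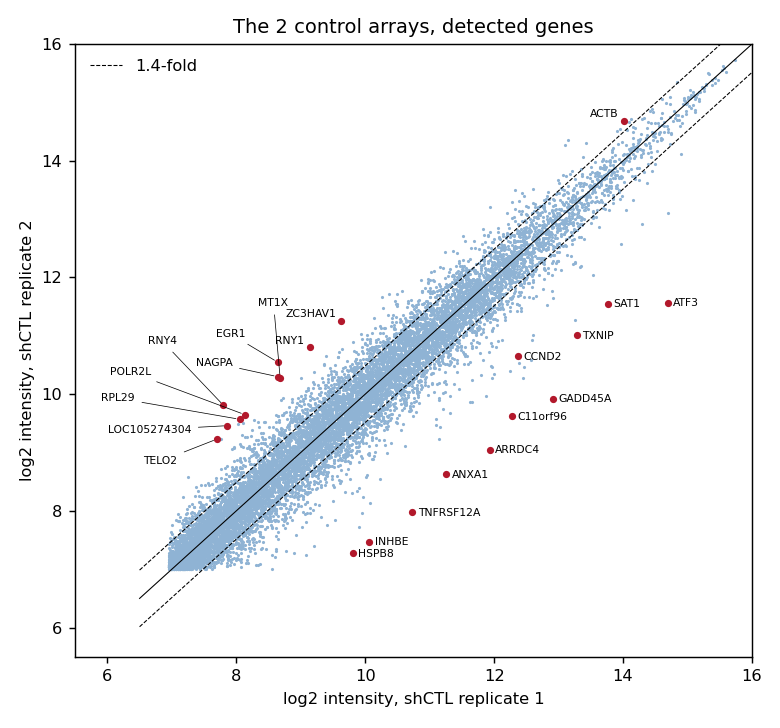
Log2 intensity of the 11719 detected genes on shCTL replicate 1 (horizontal axis) and shCTL replicate 2 (vertical axis), with the line of equality and dashed lines at 1.4-fold. The 10 genes with the widest gap in each direction, CCND2 and ACTB are marked in red, and ATF3 lies farthest below the line (14.69 and 11.57).

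Within the lists the counts are to be read against the 9.72% and 8.52% of all detected genes. Of 28 detected genes that the amino acid response factor ATF4 is known to induce, 9 were more than 1.4-fold higher on replicate 1 and 3 on replicate 2, with a median difference of -0.21 (replicate 2 minus replicate 1). The median over all detected genes was 0.00. ATF3, ASNS (14.37 and 13.62), CTH (12.17 and 11.27), SLC7A11 and NUPR1 were among the higher ones, and SESN2 (8.85 and 9.60) and ATF5 (8.03 and 8.69) were lower on replicate 1. Of 17 detected immediate early genes 8 were higher on replicate 1, among them ATF3, which both lists hold, JUN (13.96 and 12.57), DUSP1 (12.59 and 10.92), CCN1 (12.47 and 10.46) and CCN2 (12.25 and 10.40). EGR1, FOS (8.09 and 9.30) and FOSB (7.97 and 9.10) were higher on replicate 2. Of 22 detected hypoxia-inducible targets 2 were higher on each array, with a median difference of 0.01. Of 76 mitochondrial ribosomal protein genes 16 were higher on replicate 2 and 1 on replicate 1. In the same order the counts were 7 and 0 of 24 homeobox genes and 7 and 0 of 30 proteasome subunits. They were 6 and 0 of 21 SR and hnRNP genes and 0 and 6 of 28 kinesins. These lists are among the most one-sided of the 141. Larger lists were even, with 24 and 24 of 348 ZNF genes and 15 and 14 of 188 solute carriers.

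Of the genes that the study followed by other assays, 11 were looked up, and these were detected on both control arrays. FOXO1 (chr13:40555667-40666641 on GRCh38.p14) read 9.30 and 9.31, and COG6 (chr13:39655627-39791666), which flanks the same stretch of chromosome 13, read 10.12 and 9.96. Both were steady. The D-type cyclin CCND2 (chr12:4273762-4305353) was not, at 12.37 on replicate 1 and 10.65 on replicate 2, a 3.29-fold gap. Its second probe gave the same direction, 11.61 and 9.76. The second of these arrays is the one that the series value table holds under shlinc00598#2 replicate 1, so this may not be a gap between controls. The array that the value table holds as shCTL replicate 2 read CCND2 at 8.95, so under that reading the gap to replicate 1 was wider. CCND1 read 11.19 and 11.60 and CDK4 13.41 and 13.15, within 1.4-fold.

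Others of these genes also varied between the control arrays. PIM1, a kinase that favours cell survival, read 10.15 and 9.01, and UBE2L6, the conjugating enzyme for the interferon-induced modifier ISG15, read 10.33 and 9.74 on the brightest of 3 probes, 1 of which was not detected. CITED2 read 12.05 and 11.48. The mTOR inhibitor DDIT4 read 11.44 and 11.69 and the cyclin-dependent kinase inhibitor CDKN1B 9.44 and 9.81. ACTB, the reference gene of the study's PCR assays, read 14.01 and 14.68 on its brightest probe, a gap beyond 1.4-fold, and its other probes read 13.59 and 14.36 and 13.19 and 14.26. All 3 probes were higher on replicate 2. Under the other reading the second control array read PIM1 at 8.97, CITED2 at 11.57, UBE2L6 at 9.11, DDIT4 at 9.48 and ACTB at 14.89, and FOXO1 at 9.36 and COG6 at 9.88.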

How the data were processed

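Total RNA of shCTL, shlinc00598#2 and shlinc00598#3 HEK293T cells was read on HumanHT-12 v4 arrays, 2 per line. The authors exported probe intensity values before normalization, each with a detection p-value, with GenomeStudio 2011.1, and deposited a table of log2 intensities after quantile normalization. Columns were tied to samples by the sample descriptions, and only the 2 shCTL arrays were described.

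Intensities were quantile-normalized across the 6 arrays in Python 3.11.15 (numpy 2.4.6, pandas 2.3.3), with no background correction, and put on the log2 scale. For shCTL replicate 1 this gave the deposited log2 values of its own column to within 0.00417. limma 3.58.1 in R 4.3.3 gave the neqc alternative (offset 16). Of the probes, 30113 carry 1 gene symbol in the platform annotation, 8 several and 17200 none. A gene was detected if 1 such probe had a detection p under 0.05 on both arrays, and was read by its brightest detected probe, otherwise by its brightest probe. No test was run between the 2 arrays. The steps were tested on simulated data. Arrays have no read depth, so 2 arrays limit the precision, and signals near background are compressed. Promoter sequences and coordinates are RefSeq's (GRCh38.p14), matched by gene ID for 15033 of 20046 genes.

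Gene lists were chosen with earlier results of these data known. Named are the 30 brightest genes, list members (all in families of up to 8, otherwise up to 6 detected and defining members not detected), the 10 genes with the widest gap between the arrays in each direction, and genes the study measured. Alternatives were stricter or looser detection, other probe rules, other normalizations, each array alone and, chosen after seeing the data, the other reading of the second control array.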

Additional observations from a re-analysis of the deposited data

How the results depend on the processing

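Among 20046 genes, 10713 were detected at a detection p under 0.01, 11127 after Benjamini-Hochberg adjustment, 12968 when 1 array sufficed and 9205 when every probe had to pass, against 11719. On replicate 1 alone 12577 were detected, and on replicate 2 alone 12129. Between 20 and 28 paralogue families had exactly 1 detected member under these settings, against 23, and probe counts ran from 17175 to 23385. Of 141 lists, 33 moved by more than 1.5 times when every probe had to pass and 18 at a p under 0.01. Gaps over 1.4-fold between the arrays were counted for 2138 genes, 2061 to 2307 under other scalings or filters, 3134 with neqc and 2950 under the other reading of the second control array. With neqc the levels of the named genes shifted by a median of -0.39, and the mean over all probes of a gene moved 252 of 747 named genes beyond 1 SD, by up to 6.54. Signals below a log2 intensity of about 8 are limited by background. No paired analysis was possible because only 1 group was described, so no replicate number is shared between compared groups.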
